A study of Mus musculus with 5 samples.

Results

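The Krüppel-like factors (Klf) are a family of zinc-finger transcription factors, and the 10 members Klf2, Klf3, Klf4, Klf6, Klf7, Klf9, Klf10, Klf11, Klf13 and Klf16 were followed among the 52550 genes of the count table, each matched by its symbol. All 10 had enough counts to be tested, as did 11766 genes in all. Lin-cKit+Sca1- (KL) cells, the bone marrow fraction that holds committed myeloid progenitors, were sorted from mice that carried the scl-Cre-ERT transgene, and their RNA was read at transcript ends by QuantSeq 3′ sequencing. The mutant group (scl-Cre-ERT +; Bcorfl/y, called BcorΔE9-10, n = 3 libraries) had lost exons 9 and 10 of Bcor, which leaves a truncated protein that lacks the end needed to bind PRC1.1, and the control group (scl-Cre-ERT +; Bcorwt/y, BcorWT, n = 2 libraries) kept the intact gene. Mice of both groups received tamoxifen at 1 mg a day for 5 days at an age of 3 to 6 months, and the KL cells came from marrow taken 20 weeks later. The Cre is driven by a stem cell enhancer of Scl (Tal1), so in BcorΔE9-10 the deletion was induced in stem cells and reached the KL cells by descent. The labels number the libraries without saying that each came from a separate animal, so p-values measure the spread between these libraries.

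Krüppel-like factors share a DNA-binding end that recognises GC-rich boxes and CACCC elements, and they differ in the rest of the protein, through which they recruit either co-activators or co-repressors. Klf2 and Klf4 are known for quiescence and for monocyte differentiation, Klf6 is an early response gene of growth control and inflammation, and Klf3 represses through the CtBP co-repressor. Klf9, Klf10, Klf11, Klf13 and Klf16 can bind the Sin3A co-repressor. Within that group, Klf10 and Klf11 were found as genes induced by TGF-β, and Klf9 responds to glucocorticoid and thyroid hormone.

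The family is also known for acting on its own promoters and those of its relatives, so the start regions were read for the elements it binds. RefSeq (build GRCm38.p6) gave a window of 250 bases before to 50 bases after the transcription start for 8 of the 10 members, Klf10 and Klf16 being without one. Shown here are the windows of Klf6, the member that passed the test between genotypes, of Klf2, whose counts varied most between libraries of the same genotype, and of Klf7, the member that passed after a correction for base composition. They lie at chr13:5861239-5861538 on the plus strand, chr8:72318812-72319111 on the plus strand and chr1:64121340-64121639 on the minus strand. Capitals mark the GC box (GGGCGG) and the CACCC element on either strand, so that a reverse-strand CACCC appears as GGGTG.
Klf6: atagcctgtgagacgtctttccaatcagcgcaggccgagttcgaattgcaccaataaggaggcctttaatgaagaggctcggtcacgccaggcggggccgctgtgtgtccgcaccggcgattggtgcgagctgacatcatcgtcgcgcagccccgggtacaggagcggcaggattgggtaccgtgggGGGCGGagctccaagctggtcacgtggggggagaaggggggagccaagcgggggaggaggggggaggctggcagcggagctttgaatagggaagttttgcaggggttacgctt
Klf2: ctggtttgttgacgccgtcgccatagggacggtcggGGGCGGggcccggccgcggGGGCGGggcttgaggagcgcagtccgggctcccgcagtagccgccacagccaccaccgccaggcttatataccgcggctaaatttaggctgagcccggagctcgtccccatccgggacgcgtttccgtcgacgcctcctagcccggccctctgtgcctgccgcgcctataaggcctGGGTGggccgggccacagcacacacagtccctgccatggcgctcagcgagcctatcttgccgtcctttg
Klf7: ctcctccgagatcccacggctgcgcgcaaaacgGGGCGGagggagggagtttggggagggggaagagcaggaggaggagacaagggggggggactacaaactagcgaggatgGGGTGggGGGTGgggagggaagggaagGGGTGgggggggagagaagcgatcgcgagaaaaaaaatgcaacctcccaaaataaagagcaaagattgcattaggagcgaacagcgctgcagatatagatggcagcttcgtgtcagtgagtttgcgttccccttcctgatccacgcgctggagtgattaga
The Klf6 window held 1 GC box and no CACCC element. The Klf2 window held 2 GC boxes and 1 CACCC element, and that of Klf7 1 GC box and 3 CACCC elements, with no overlap between the 2 motifs in any of the windows shown. A GC box was found in 7 of the 8 members' windows (the exception was Klf9) and in 35.7% of 32851 windows of all genes. A CACCC element was found in 5 of the 8, against 57.5% of all windows. The core of the cAMP response element (TGACG, either strand) was in 5 of the 8 windows, namely those of Klf2, Klf3, Klf4, Klf9 and Klf13, against 20.8% of all windows, while the CArG box bound by Srf was in 0 of the 8, against 1.63%. The 8 windows had a GC content of 58.3% (Klf7) to 77.7% (Klf11), and the windows of all genes were not matched for it. These matches describe letters in the windows and were not tested against binding.

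Total counts ranged from 5998924 to 8303999 per library. Across all genes, limma called 10.1% at an adjusted p-value under 0.05, of which 6.02% of the genes tested were higher and 4.09% lower in BcorΔE9-10. That split, 708 higher and 481 lower, became 1210 higher and 197 lower when libraries were scaled by their total counts alone. The edgeR quasi-likelihood test called 11.2% and DESeq2 10.9%. Of the Klf members, 1 of 10 passed the limma test, Klf6, against the background of 10.1%. At an unadjusted p-value under 0.05 it was also 1 of 10, where 25.3% of all genes tested were reached. The log2 fold changes of BcorΔE9-10 over BcorWT were positive for 4 members and negative for 6, with a median of -0.12 beside 0.0043 over all genes tested. Values of both groups did not overlap for 4 members, Klf10 and Klf16 higher in BcorΔE9-10 and Klf7 and Klf11 lower. Of all genes tested, 22.6% were higher and 20.3% lower with no overlap, so neither count of 2 of 10 stood above its background. In the sum over the 10 genes the BcorΔE9-10 libraries held 452, 405 and 342 CPM (counts scaled to a library total of 1e+06 with TMM factors) and the BcorWT libraries 460 and 308. The sums of the genotypes overlapped, and the family had no common direction. In such bulk libraries, fewer cells of a type and less RNA per cell cannot be told apart.

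**Figure D1:**
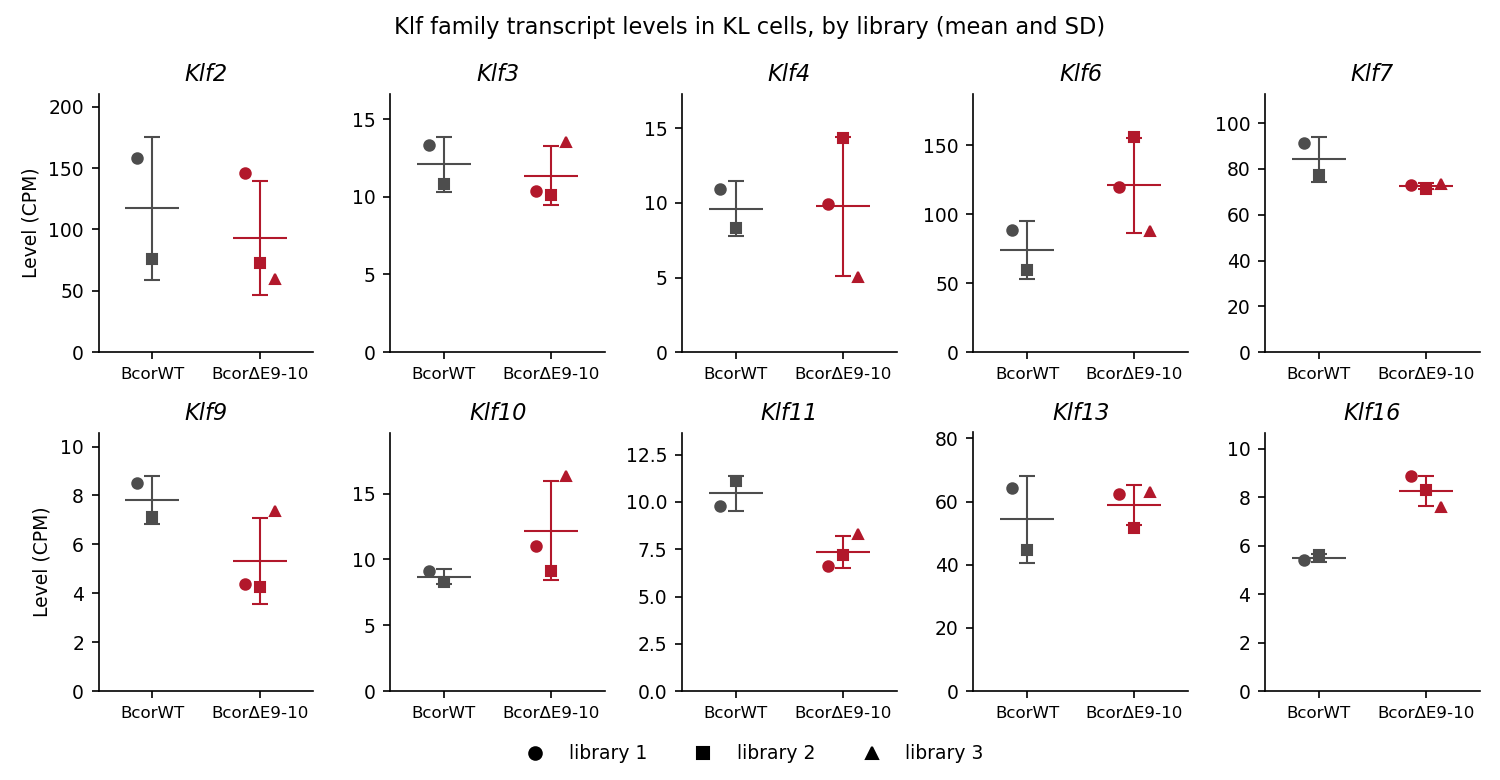
Level of each of the 10 Klf genes in CPM, with 1 panel per gene, 1 point per library (marker shape gives the library number) and a bar with whiskers at the mean and SD of each genotype. Klf10 and Klf16 lie higher in all 3 BcorΔE9-10 libraries and Klf7 and Klf11 lower, while the points of the other members overlap, those of Klf6 by a narrow margin (87.5 against 88.8 CPM).

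Klf6, a factor induced early by growth and inflammatory signals, was the member that rose (chr13:5861482-5870394, plus strand). The BcorΔE9-10 libraries held 120, 156 and 87.5 CPM (1013, 958 and 749 counts) and the BcorWT libraries 88.8 and 59.4 CPM (625 and 401 counts). The lowest BcorΔE9-10 library thus lay just under the higher BcorWT library. The means were 121 ± 34.4 CPM (SD, n = 3) and 74.1 ± 20.7 CPM (SD, n = 2). The log2 fold change was 0.68 (SE 0.207, 95% interval 0.24 to 1.12, limma adjusted p = 0.0462), or 1.60-fold (1.18 to 2.17). By p-value it was number 1146 among all genes, of which 1189 were called, so it stood close to the threshold. The edgeR test also passed (log2 fold change 0.70, adjusted p = 0.0422), whereas DESeq2 did not (0.69, adjusted p = 0.258). With limma the call was also lost with RLE size factors (0.66, adjusted p = 0.0513), with sample quality weights (0.64, adjusted p = 0.0707) and after a correction for the GC content of transcript ends (0.39, adjusted p = 0.258). The call was lost without BcorΔE9-10 library 1 (0.67, limma adjusted p = 0.0857), without BcorΔE9-10 library 2 (0.49, adjusted p = 0.145) and without BcorWT library 2 (0.40, adjusted p = 0.248), and it held without BcorΔE9-10 library 3 (0.89, adjusted p = 0.0127) or BcorWT library 1 (0.97, adjusted p = 0.0154). The fold change stayed positive in every fit with 1 library left out.

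Klf2, the factor that keeps lymphocytes and monocytes at rest (chr8:72319033-72321656, plus strand), separated libraries within the genotypes rather than the genotypes themselves. It was measured at 146, 72.6 and 60.0 CPM in BcorΔE9-10 and at 158 and 75.9 CPM in BcorWT. Library 1 of each genotype was about equally high and all others about equally low. The ratio of library 1 to its fellows was 2.01 and 2.43 in BcorΔE9-10 and 2.09 in BcorWT. The coefficient of variation was 49.9% in each group, where counting error alone would give 3.70% in BcorΔE9-10 and 3.50% in BcorWT. Of 1929 tested genes with an average level within 1 log2 CPM of Klf2, a comparison made after its values were seen, 0 had a higher coefficient of variation in BcorΔE9-10 and 9 (0.467%) in BcorWT, among them Fosb, Egr1, Jund and Dusp1. With means of 92.8 ± 46.3 (SD, n = 3) and 117 ± 58.4 CPM (SD, n = 2), the log2 fold change was -0.35 (SE 0.299, 95% interval -0.98 to 0.29, limma adjusted p = 0.502). Its value turned on the library removed, being -0.87 without BcorWT library 2 and 0.18 without BcorWT library 1. Without BcorΔE9-10 library 1, 2 or 3 it was -0.74, -0.24 and -0.08 (limma adjusted p = 0.0733, 0.730 and 0.915).

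Genes with the same library pattern as Klf2 were sought by the rule that library 1 be at least 2-fold above every other library of its genotype in both genotypes. This held for 19 tested genes, 0.161% of all. Klf2 had an average of 6.68 log2 CPM, and the next of the 19 in average level, Dhx58, an RNA sensor of the innate response, had 2.13. Library 1 was merely the highest of each genotype in 1978 genes (16.8%), which is no more than a description of the table. The rule was applied after the values of Klf2 had been seen. The replicate numbers are labels of the libraries and no source used here ties them to a day or a litter.

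The immediate-early genes, which respond within minutes to stimulation and to the handling of cells, were set beside Klf2 because Klf2, Klf4, Klf6 and Klf10 can respond to the same signals. Their summed level was 1695, 1435 and 1130 CPM in BcorΔE9-10 and 1421 and 841 CPM in BcorWT. Library 1 had the highest sum of each genotype. Of the 11 tested, 7 had library 1 highest in both genotypes (Fos, Fosb, Jun, Junb, Jund, Ier2 and Zfp36), and Egr1, Btg2, Ier3 and Nr4a1 did not. Jund, a subunit of AP-1, held 74.1, 48.5 and 39.3 CPM in BcorΔE9-10 and 72.1 and 33.0 CPM in BcorWT, and Jun, its relative, 591, 412 and 335 CPM against 500 and 293 CPM. Both were picked out after their values were seen, and neither passed the test between genotypes (limma adjusted p = 0.876 and 0.630). Dusp1, a phosphatase gene from the list of Klf targets that was picked out in the same way, had 248, 159 and 122 CPM in BcorΔE9-10 and 158 and 74.5 CPM in BcorWT (limma adjusted p = 0.146). Of the 14 immediate-early genes listed, 11 were tested and 4 were higher in BcorΔE9-10, 36.4% beside the background of 6.02%, with a median log2 fold change of 0.15. The study had listed these 4 among its differentially regulated transcription factors, and the list was chosen with earlier results of these data known. The share can thus not be read as enrichment. Fos rose most, with 292 ± 72.1 CPM (SD, n = 3) in BcorΔE9-10 and 88.6 ± 26.8 CPM (SD, n = 2) in BcorWT (log2 fold change 1.71, SE 0.205, adjusted p = 9.78e-05, limma). Fosb (1.14, SE 0.317, adjusted p = 0.0312, limma), Nr4a1 (1.47, SE 0.394, adjusted p = 0.0255) and Zfp36 (0.65, SE 0.164, adjusted p = 0.0189) were the others. The call of Fos held in 5 of 5 fits with a library left out, and the calls of the other genes in 2 of 5 each. Fosb was lost with DESeq2 (adjusted p = 0.313), and Fosb and Zfp36 were lost without BcorΔE9-10 library 1, BcorΔE9-10 library 2 or BcorWT library 2, the last of which lowered Fosb to 0.46 (limma adjusted p = 0.278) and Zfp36 to 0.34 (adjusted p = 0.183). Nr4a1 was lost without BcorΔE9-10 library 1, BcorΔE9-10 library 3 or BcorWT library 1, with limma adjusted p = 0.194 in the last case. Zfp36 was also lost after the correction for the GC content of transcript ends (0.49, limma adjusted p = 0.0808). The largest difference that did not pass was that of Btg2, -0.58 (SE 0.193, adjusted p = 0.0662, limma), which was called lower in 6 of 16 alternatives, among them edgeR (-0.62, adjusted p = 0.0489), DESeq2 (-0.64, adjusted p = 0.0323) and the fit without BcorWT library 2 (-0.97, limma adjusted p = 0.000416). Klf6 and Fos were thus called in the same direction, and the part of handling in the level of Klf6 was not tested.

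**Figure D2:**
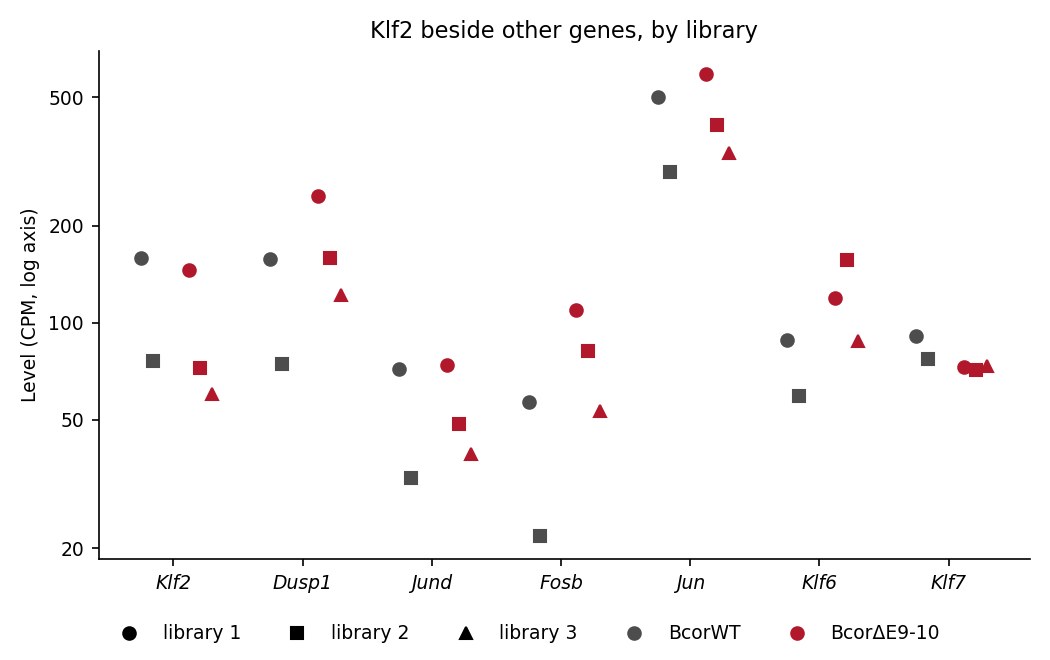
Level in CPM, on a log axis, of Klf2 beside Dusp1, Jund, Fosb, Jun, Klf6 and Klf7 in each library, with colour for the genotype and marker shape for the library number. For Klf2 library 1 stands above its fellows in both genotypes (146 and 158 CPM against 60.0 to 75.9 CPM), whereas Klf6 is highest in library 2 of BcorΔE9-10 and Klf7 differs little between libraries.

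Klf4, a factor of monocyte differentiation and a close relative of Klf2 (chr4:55527143-55532466, minus strand), showed no such pattern. Its level was 9.93, 14.4 and 5.03 CPM in BcorΔE9-10 and 10.9 and 8.30 CPM in BcorWT. Here BcorΔE9-10 library 2 was the highest and library 3 the lowest of all. The means of 9.77 ± 4.67 CPM (SD, n = 3) and 9.62 ± 1.86 CPM (SD, n = 2) differed by a log2 fold change of -0.16 (SE 0.354, 95% interval -0.90 to 0.59, limma adjusted p = 0.829). The sign of so small a value is not determined, since the mean CPM of BcorΔE9-10 was the slightly higher of the pair. Monocyte markers, 10 genes such as Csf1r and Ly6c2, summed to 1156 to 1288 CPM in BcorΔE9-10 and 1523 to 1530 CPM in BcorWT, with all 10 detected. The part of monocyte content in the levels of Klf2 and Klf4 was not tested.

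Klf3, the CtBP-binding repressor (chr5:64803388-64832901, plus strand), did not pass the test between genotypes. It had 10.4, 10.1 and 13.6 CPM in BcorΔE9-10 and 13.3 and 10.8 CPM in BcorWT. The groups overlapped almost fully, at 11.4 ± 1.91 CPM (SD, n = 3) and 12.1 ± 1.79 CPM (SD, n = 2). The log2 fold change was -0.08 (SE 0.243, 95% interval -0.60 to 0.43, limma adjusted p = 0.872). C230096K16Rik overlaps Klf3 on the same strand and Gm20033 on the opposite strand, so reads in the shared stretch cannot be assigned with certainty.

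Klf7, a factor known from neuronal and lymphoid cells (chr1:64029447-64122282, minus strand), was lower in BcorΔE9-10 without overlap of the groups. The BcorΔE9-10 libraries were tightly grouped at 73.0, 71.1 and 73.4 CPM, and the BcorWT libraries held 91.2 and 77.2 CPM. The spread of the BcorΔE9-10 libraries, a coefficient of variation of 1.67%, was smaller than the 4.22% that counting error alone would give. The means were 72.5 ± 1.21 CPM (SD, n = 3) and 84.2 ± 9.88 CPM (SD, n = 2), with a log2 fold change of -0.21 (SE 0.130, 95% interval -0.48 to 0.06, limma adjusted p = 0.329). Of the 10 members it had the smallest standard error, and the interval still included 0. The lower level of Klf7 did not pass the test in this fit.

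The Sin3A-binding members were compared next. Klf16 (chr10:80567124-80577321, minus strand), a repressor of this group, had 8.86, 8.32 and 7.60 CPM in BcorΔE9-10 and 5.40 and 5.63 CPM in BcorWT. All 3 BcorΔE9-10 libraries lay above both BcorWT libraries. With 8.26 ± 0.636 CPM (SD, n = 3) against 5.51 ± 0.166 CPM (SD, n = 2), the log2 fold change was 0.57 (SE 0.299, 95% interval -0.06 to 1.21, limma adjusted p = 0.247). The gene rested on 38 to 75 counts per library, and the difference did not pass the test. Klf13, known as a late activator of Ccl5 in T cells (chr7:63886351-63938915, minus strand), had 62.3, 51.6 and 63.1 CPM in BcorΔE9-10 and 64.2 and 44.6 CPM in BcorWT. Its groups overlapped, with BcorWT at both extremes. The log2 fold change was 0.14 (SE 0.165, 95% interval -0.21 to 0.49, limma adjusted p = 0.636), and 11.4% of the 30-base words in its transcript end also occur in Tanc2, so that some reads could belong to either gene.

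Klf9, the hormone-responsive member (chr19:23141226-23166911, plus strand), had 4.37, 4.24 and 7.36 CPM in BcorΔE9-10 and 8.52 and 7.11 CPM in BcorWT. BcorΔE9-10 library 3 lay within the BcorWT range and the other two lay below it. The means were 5.33 ± 1.76 CPM (SD, n = 3) and 7.82 ± 0.996 CPM (SD, n = 2), for a log2 fold change of -0.56 (SE 0.322, 95% interval -1.25 to 0.12, limma adjusted p = 0.291). Its counts were 26 to 63 per library, and the interval included 0.

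Klf10 and Klf11, the pair induced by TGF-β, lay on opposite sides. Klf10 (chr15:38294413-38300707, minus strand) had 10.99, 9.14 and 16.4 CPM in BcorΔE9-10 and 9.09 and 8.30 CPM in BcorWT. The lowest BcorΔE9-10 library and the higher BcorWT library were nearly equal, and BcorΔE9-10 library 3 carried most of the difference. The log2 fold change was 0.47 (SE 0.289, 95% interval -0.14 to 1.08, limma adjusted p = 0.327). Klf11 (chr12:24651274-24662789, plus strand) had 6.62, 7.18 and 8.30 CPM in BcorΔE9-10 and 9.80 and 11.1 CPM in BcorWT. Every BcorΔE9-10 library was below both BcorWT libraries. The means were 7.37 ± 0.855 CPM (SD, n = 3) and 10.5 ± 0.930 CPM (SD, n = 2), with a log2 fold change of -0.50 (SE 0.259, 95% interval -1.05 to 0.05, limma adjusted p = 0.242). Neither member passed the test, and the difference between their fold changes was not tested.

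The annotated transcript ends, each that of the longest transcript of its gene, are AT-rich in most of the family. Whether the counted reads came from these ends was not tested. The last 300 bases had a GC content of 21% in Klf7, 26.7% in Klf4, 27.7% in Klf3, 29.3% in Klf6 and 30% in Klf9, below the median of 43.3% over the genes tested. Only Klf2 and Klf16, both at 48.7%, lay above that median. Of the 10 members, 8 fell in the lower 2 of 5 bins of similar size by GC content. Over the whole table, whose genes are not independent of each other, the log2 fold change fell with GC content (Spearman correlation -0.253 over 11759 genes). In the bin of lowest GC content 11.6% of genes were called higher and 1.55% lower, beside 6.02% and 4.09% of all genes. A GC correction, which took a smooth trend out of each library with its genotype left unread, called 8.97% of genes. After it, 1 of 10 members passed, and it was Klf7 in place of Klf6. The log2 fold change of Klf7 became -0.70 (limma adjusted p = 0.00351), whereas that of Klf6 was reduced to 0.39. Klf7 has a transcript end more AT-rich than 99.9% of the genes tested, so its correction rests on the edge of the trend. For the other AT-rich members the correction moved Klf4 to -0.51 (limma adjusted p = 0.402), Klf3 to -0.41 (adjusted p = 0.324) and Klf9 to -0.84 (adjusted p = 0.121), none of which passed.

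**Figure D3:**
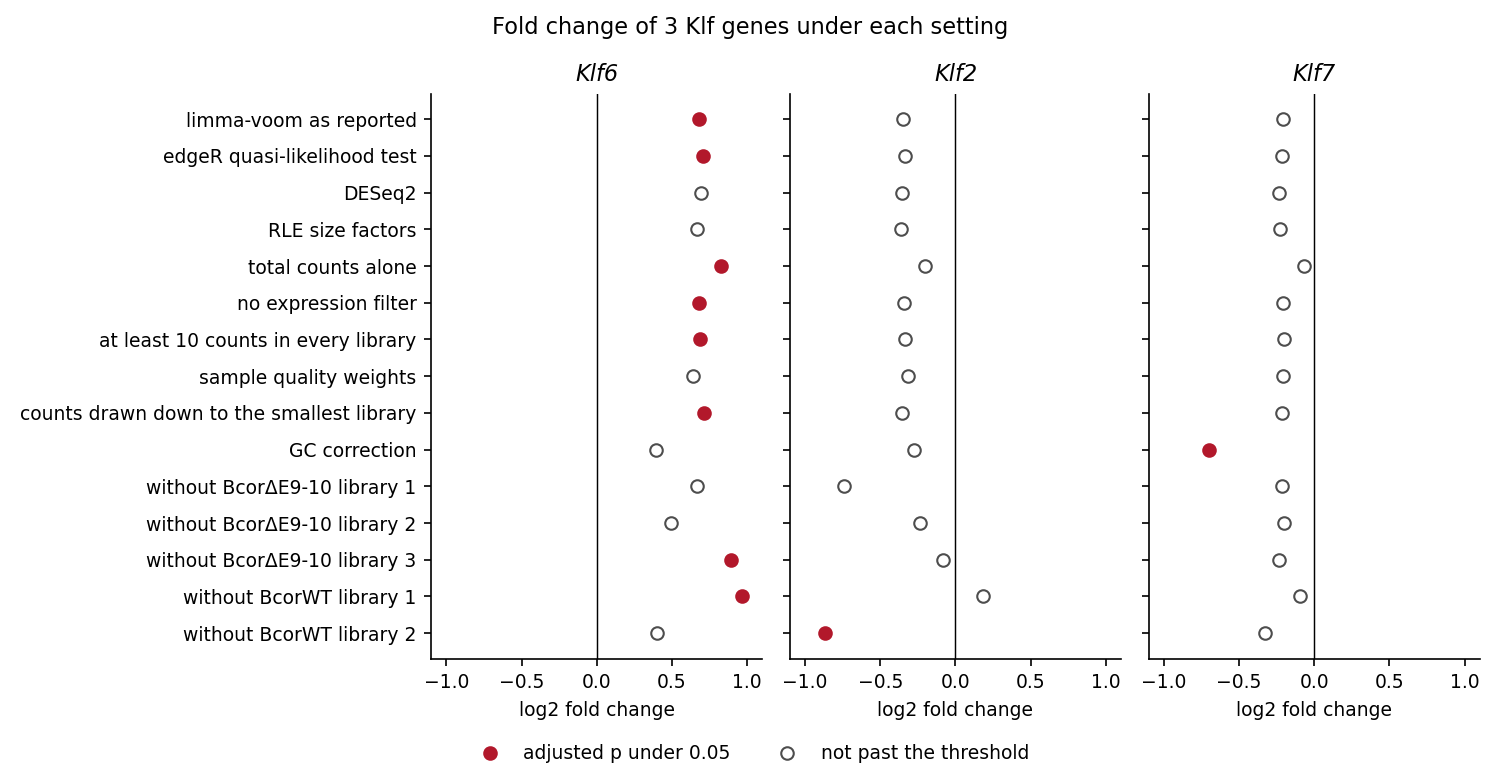
Log2 fold change of Klf6, Klf2 and Klf7, with 1 panel per gene and 1 line per analysis setting, the last 5 lines each leaving out a library, filled where the adjusted p-value was under 0.05. Klf6 stays above 0 in every setting shown and passes in 7 of the 14 alternatives drawn, which leave out the 2 with a replicate block, while Klf7 passes in 1 (GC correction) and Klf2 in 1 (without BcorWT library 2).

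Of 16 other Klf and Sp genes, the Sp factors being close relatives that bind the same GC boxes, 8 had no count in any library (Klf12, Klf14, Klf15, Klf17, Sp5, Sp6, Sp7 and Sp8) and 6 were tested. Klf1, the erythroid member, had 5, 10 and 8 counts in BcorΔE9-10 and 0 and 2 in BcorWT, too few to be tested. Erythroid markers, 11 genes that include the globins, summed to 127 to 324 CPM in BcorΔE9-10 and 72.7 to 119 CPM in BcorWT, and their part in the counts of Klf1 was not tested. None of the 6 tested genes passed the limma test, which 10.1% of all genes passed. Of the 6, 1, Sp3, had an unadjusted p-value under 0.05, as did 25.3% of all genes. Sp3, which can activate or repress through GC boxes, had 36.4, 43.2 and 44.1 CPM in BcorΔE9-10 and 26.6 and 31.1 CPM in BcorWT, so the groups did not overlap. Its log2 fold change was 0.51 (SE 0.168, adjusted p = 0.0641, limma), and it was singled out after its value was seen. After the GC correction it was 0.15 (limma adjusted p = 0.632). The largest difference among the 6 was that of Klf8, -0.87 (SE 0.829, adjusted p = 0.552, limma). Klf5, known from epithelia and myeloid cells, had a log2 fold change of -0.36 (SE 0.184, adjusted p = 0.235, limma). By edgeR and by DESeq2 the number of these genes called was likewise 0, beside 11.2% and 10.9% of all genes.

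**Figure D4:**
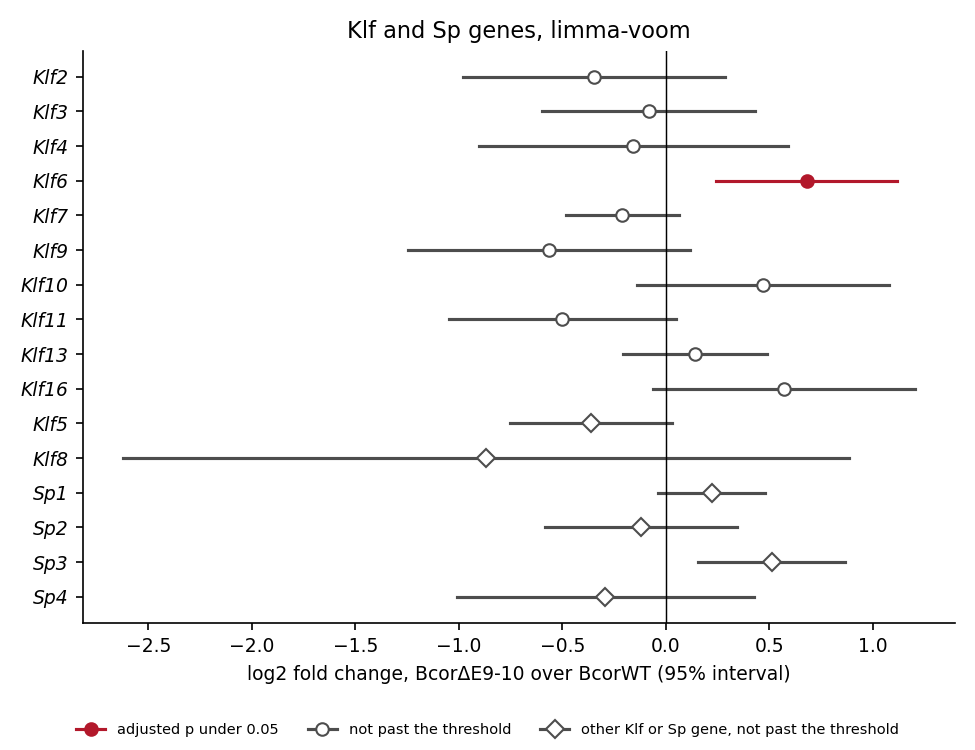
Log2 fold change of BcorΔE9-10 over BcorWT from limma, with its unadjusted 95% interval, for the 10 Klf genes (circles) and the 6 other Klf and Sp genes tested (diamonds), filled where the adjusted p-value was under 0.05. Among the 10 members the interval of Klf6 (0.24 to 1.12) alone lies off 0, and that of Sp3 lies off 0 without passing after adjustment.

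Proteins through which Klf factors act, or by which they are degraded, were all expressed. Of 20 such partners, 20 were tested and 2 were higher in BcorΔE9-10 (10%, background 6.02%), with a median log2 fold change of 0.16. Sap30, a subunit of the Sin3-histone deacetylase complex, had 11.5, 14.5 and 14.3 CPM in BcorΔE9-10 and 4.69 and 2.82 CPM in BcorWT, a log2 fold change of 1.84 (SE 0.358, adjusted p = 0.00379, limma). Kat2b, the acetyltransferase PCAF, had 20.0, 22.2 and 19.0 CPM against 9.94 and 9.48 CPM. The log2 fold change was 1.05 (SE 0.228, adjusted p = 0.00779, limma). Both groups were clearly apart for these genes, and both calls held in 16 of 16 alternatives. Sin3a and Sin3b, Ctbp1 and Ctbp2, and Hdac1, Hdac2 and Hdac3, the scaffolds and deacetylases of these complexes, did not pass. The largest difference that did not pass was that of Fhl3, -0.54 (limma adjusted p = 0.0785).

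Among 18 inducers upstream of Klf genes, 18 were tested and 4 were higher in BcorΔE9-10 (22.2%, background 6.02%), with a median of 0.04. Of these, 3 belong to TGF-β signalling, the input to Klf10 and Klf11. Tgfbr2, the ligand-binding receptor, had 12.6, 11.3 and 13.2 CPM in BcorΔE9-10 and 2.56 and 4.89 CPM in BcorWT, a log2 fold change of 1.80 (SE 0.362, adjusted p = 0.00461, limma). Tgfbr1, its partner kinase (0.83, SE 0.255, adjusted p = 0.0486, limma), and Smad3, the factor they phosphorylate (0.72, SE 0.204, adjusted p = 0.0330), rose less, were called in 3 and 10 of 16 alternatives, and were each kept in 0 of 5 fits with a library left out. Smad2 and Smad4 did not pass. Without BcorWT library 1 the call of Tgfbr2 was lost as well (limma adjusted p = 0.0647). The remaining call was Elk4, a partner of Srf on immediate-early promoters (0.63, SE 0.173, adjusted p = 0.0275, limma), which was kept in 1 of 5 fits with a library left out and had 0.35 (adjusted p = 0.340) without BcorWT library 1. Mapk7, the kinase Erk5 that induces Klf2 and Klf4 through Mef2, had the largest difference that did not pass, -0.72 (limma adjusted p = 0.125). Without any 1 of the BcorΔE9-10 libraries, Tgfbr2 was the sole inducer called. Fits without a BcorWT library leave 1 control, and there the log2 fold change of Tgfbr2 was 1.33 (without library 1) and 2.26 (without library 2).

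Genes that Klf factors are known to control gave 1 call among 13 tested of 16 listed (7.69%, background 10.1%). Lgals3, which encodes galectin-3, had 102, 96.9 and 96.3 CPM in BcorΔE9-10 and 178 and 114 CPM in BcorWT, a log2 fold change of -0.54 (SE 0.155, adjusted p = 0.0370, limma). The log2 fold change of Lgals3 was -0.22 without BcorWT library 1. Its call was lost without any 1 of the BcorΔE9-10 libraries (limma adjusted p = 0.0689, 0.0858 and 0.105). It was also lost with total counts (limma adjusted p = 0.106) and after the GC correction (0.0524). The median of the 13 was 0.14, and the largest difference that did not pass was that of Cd14, 0.70 (limma adjusted p = 0.259). Over partners, inducers and targets together, 7 of 51 tested genes passed (6 higher and 1 lower, 13.7%), beside 10.1% of all genes.

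**Figure D5:**
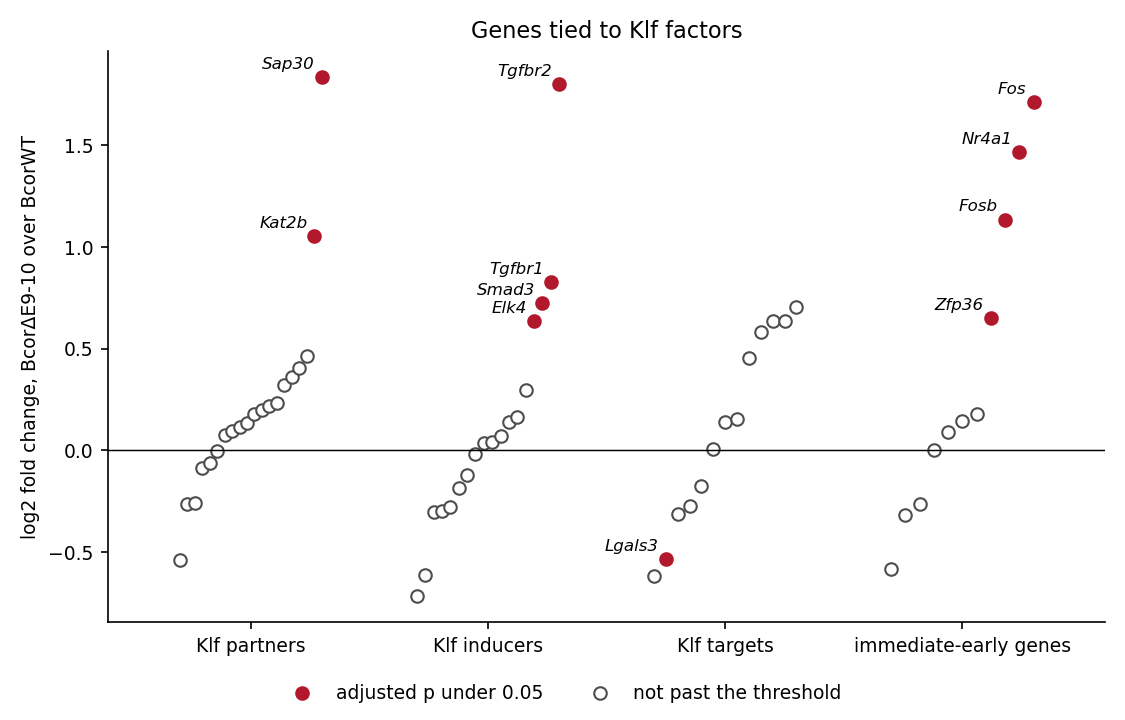
Log2 fold change of BcorΔE9-10 over BcorWT from limma for each tested gene of the lists of Klf partners, inducers, targets and immediate-early genes, in order of size within a list, with filled and named points where the adjusted p-value was under 0.05. Sap30, Tgfbr2 and Fos (1.84, 1.80 and 1.71) lie highest, and Lgals3 (-0.54) is the called gene below 0.

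Summed markers of other cells differed between the genotypes without overlap for some cell types and overlapped for others. Mature neutrophil markers, 10 genes such as S100a8 and Ltf, summed to 147612 to 171543 CPM in BcorΔE9-10 and 213707 to 225126 CPM in BcorWT. Basophil and mast cell markers were at 351 to 457 against 601 to 777 CPM. Of the 7 tested, 4 were called lower and 1 higher (background 4.09% and 6.02%). Megakaryocyte markers, which overlapped, were at 43.9 to 70.2 against 26.7 to 45.7 CPM. The sum of the myeloid progenitor markers overlapped, at 7026 to 8307 against 7528 to 8400 CPM, and Kit and Mpo were detected in every library. B cell markers were at 11.1 to 21.5 against 8.30 to 14.3 CPM (Ms4a1 at 0). Endothelial markers, of which 1 of 6 had enough counts to be tested, were at 20.1 to 27.8 against 32.5 to 32.7 CPM. T and NK cell markers summed to 137 to 176 against 188 to 193 CPM, lower in BcorΔE9-10, whereas the median log2 fold change of the 5 tested was 1.44, with 3 positive and 0 called. The part of these cells in the levels of the Klf genes was not tested.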

How the data were processed

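The KL cells were sorted by flow cytometry from lineage-depleted marrow, and QuantSeq 3′ libraries were sequenced from their RNA. The authors deposited raw, unscaled read counts for every gene. Per the submitters' processing notes, they split reads with bcl2fastq (2.17.1.14), trimmed them with cutadapt (1.7), aligned them to mm10 with HISAT2 and counted them with featureCounts of Subread (1.5.0-p3). The study's methods give another version of cutadapt. How strand and multiply aligned reads were handled is not given in the sources used here, so overlapping genes may share reads. Each count column was matched to a sample by its description. Of the 52550 genes, 52403 received a symbol.

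Genes were filtered with filterByExpr (edgeR 4.0.16, minimum count 10, minimum total 15), TMM-scaled and tested, two-sided, by limma (3.58.1), the tool that the study's methods name, on voom values in R 4.3.3. All adjusted p-values are Benjamini-Hochberg values over all genes tested (threshold 0.05). The edgeR quasi-likelihood test and DESeq2 (1.42.0), other scaling, filters, quality weights, equal depth, a replicate block, a GC correction (lowess, span 0.3) and leaving out each library were alternatives. Library pairs within a genotype gave a chi-square of 5.69 to 10.8 per gene, where sampling noise alone gives 1, and none was merged. The procedures were tested on simulated data.

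All members were described. Of the lists of other Klf and Sp genes, partners, inducers, targets and immediate-early genes, called genes and the largest difference that did not pass were named. Cell type markers were summed. The members and lists were chosen with earlier results of these data known. Motifs and marker sums had no test. Promoter sequences came from RefSeq, and transcript ends from GENCODE M21.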

Additional observations from a re-analysis of the deposited data

How the results depend on the processing

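Of 160 values for the 10 Klf genes under the alternatives, 138 kept their direction and their side of the threshold, 7 lost a call (all of Klf6), 4 gained one and 11 changed sign. The number of members called was 0 with DESeq2 (10.9% of all genes called), with RLE size factors (10.4%) and with sample quality weights (8.52%). It was 3 with the GC correction and replicate block together (Klf6 higher, Klf7 and Klf9 lower, 10.9% of all genes). That fit leaves BcorΔE9-10 library 3 out of the genotype contrast, and no other alternative called Klf9. The number of members called was 0 to 1 with a BcorΔE9-10 library left out (6.33% to 8.05% of all genes). Under the GC correction alone it stayed at 1, but for Klf7 in place of Klf6, and without BcorWT library 2 it was Klf2. Of the members, Klf2, Klf3, Klf4 and Klf13 changed sign. For Klf4 the log2 fold change was 0.00012 with edgeR, 0.0023 with total counts and 0.30 with the replicate block, and -0.44 to 0.27 with a library left out. For Klf3 it was 0.057 with total counts and -0.24 to 0.064 with a library left out. For Klf13 it was -0.049 with the GC correction, -0.12 with the block added and -0.11 to 0.40 with a library left out, and for Klf2 -0.87 to 0.18. Scaling by total counts moved the median of all genes to 0.149 (log2), the fold change of Sp2 to 0.027, and Klf6 to 0.83.

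The number of other Klf and Sp genes called was 1 with total counts (Sp3), with all libraries drawn down to the smallest total (Sp3) and with the GC correction and replicate block (Klf5). Of all genes, these fits called 12%, 10.5% and 10.9%. With a library left out, genes called overall ranged from 558 to 1200 and the partners, inducers and targets called from 3 to 8. Jun ranged from -0.20 to 0.56 and Jund from -0.46 to 0.65. The values of single genes outside the 10 members, such as these, were computed under the settings after the data had been seen.

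Replicate numbers shared by the groups do not pair the libraries by any source used here, and deviations from the group means correlated by 0.070 and 0.076 in the 2 pairs with the same number. Number 3 occurs in BcorΔE9-10 alone, so with the number as a replicate block that library adds nothing to the genotype contrast. The fit then rests on the 2 pairs, and its small p-values add no weight to a call. It called 1454 genes, 1087 of them also called without the block. The log2 fold change of Klf6 was 0.89 (limma adjusted p = 3.32e-07), close to its value without BcorΔE9-10 library 3 (0.89).

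With 2 BcorWT libraries and 26 to 75 counts each, the differences of Klf9, Klf11 and Klf16 did not pass the test, although the spread of Klf11 and Klf16 within a genotype was below that of counting error. The intervals of Klf3 and Klf4 likewise do not show that their levels were alike. Klf10 and Klf16 had no promoter window.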
